A study of Mus musculus with 2 samples.

Results

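Lcn2, Serpina3n, S100a8 and S100a9 are 4 of the 34097 genes listed in the deposited count matrices, and all 4 are genes of the acute-phase and inflammatory response. They were chosen because earlier results of these same data had shown them at different levels in the control and the knockdown library, so every difference between the libraries given here is a description of values that took part in the choice, and no test was made. Their levels were read in cells taken by fixed gates: tumour-like cells (no Ptprc UMI, Lyz2 under 5 per 10000 UMIs, at least 5000 UMIs), split at 5 UMIs of Krt16 plus Klk8, macrophages (C1qa, C1qb and C1qc together at least 10 per 10000) and monocytes (Lyz2 at least 20 and the C1q genes under 5 per 10000). A neutrophil gate (at least 3 of 18 neutrophil markers with a UMI and the C1q genes under 5 per 10000) may share cells with the others. A UMI, or unique molecular identifier, stands for 1 captured RNA molecule, and CPM scales the UMIs of a gene to a total of 1000000 over the cells taken.

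The series holds 2 single-cell libraries from mouse tumours described as lung cancer xenografts of LLC cells, the Lewis lung carcinoma line. The first library is labelled control (NC), and the other is labelled for a short hairpin RNA to knock down GFPT2 (SH), an enzyme of the hexosamine pathway; no host strain, age, sex, site or time of growth is given in the labels used here, nor whether the control carried a hairpin. Each group is 1 library, and how many tumours went into it is not given in the labels used here, so a difference between libraries cannot be told apart from one between individual tumours, and the intervals below cover counting error only. After filtering, 10660 control cells (median 9357.5 UMIs) and 11450 knockdown cells (median 7167.5 UMIs) remained. The Krt16/Klk8-high gate held 231 control and 58 knockdown cells, the Krt16/Klk8-low gate 4746 and 5137, the macrophage gate 3998 and 4584, the monocyte gate 144 and 40, and the neutrophil gate 39 and 10. Gfpt2, the targeted gene, was at 22.2 CPM (137 UMIs) in control and 3.78 CPM (5 UMIs) in knockdown Krt16/Klk8-high cells, and at 0.770 and 0.580 CPM in Krt16/Klk8-low cells. Of the epithelial keratins, Krt8, Krt18 and Krt19 had no UMI in the Krt16/Klk8-high cells of either library, while Hmga2, a chromatin protein of many tumour cells, was at 290 and 209 CPM. Of the 8 epithelial and tumour markers listed, 5 had a UMI in the control and 4 in the knockdown high cells, Krt7 and Cdh1 in both. The 8 fibroblast markers, which the gate does not use, summed to 1614 and 2202 CPM in the high cells of control and knockdown. In the low cells they summed to 2654 and 2918 CPM. The cells are therefore called tumour-like by their gate only. The libraries shared 37 barcodes, and the kept control cells among them held 28 Lcn2, 18 Serpina3n, 1 S100a8 and 1 S100a9 UMIs.

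Lcn2 encodes lipocalin-2, a secreted protein that binds bacterial siderophores and so withholds iron from microbes. Serpina3n encodes a secreted inhibitor of serine proteases and is one of a cluster of closely related mouse Serpina3 genes. S100a8 and S100a9 encode the subunits of calprotectin, a calcium- and zinc-binding complex that fills the cytosol of neutrophils and, once released, can act on the receptors Tlr4 and Ager. Transcription of acute-phase genes is known to respond to interleukin-6 family cytokines through STAT3 and to interleukin-1, interleukin-17 and tumour necrosis factor through NF-kB and C/EBP factors.

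Because the 4 genes were lower together in the knockdown library, the 250 bases upstream of each start are shown, from RefSeq on GRCm38.p6; all 4 genes matched. The intervals are chr2:32387740-32387989 on the minus strand for Lcn2, chr12:104406458-104406707 on the plus strand for Serpina3n, chr3:90668821-90669070 on the plus strand for S100a8 and chr3:90695722-90695971 on the minus strand for S100a9. Each is written 5' to 3' on the strand of its gene, and capitals mark a match to one of the motifs searched.
Lcn2: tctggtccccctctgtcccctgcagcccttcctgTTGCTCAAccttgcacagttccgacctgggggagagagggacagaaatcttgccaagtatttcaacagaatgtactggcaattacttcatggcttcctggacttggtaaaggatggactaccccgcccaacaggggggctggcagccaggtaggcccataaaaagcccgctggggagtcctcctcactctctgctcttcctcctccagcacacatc
Serpina3n: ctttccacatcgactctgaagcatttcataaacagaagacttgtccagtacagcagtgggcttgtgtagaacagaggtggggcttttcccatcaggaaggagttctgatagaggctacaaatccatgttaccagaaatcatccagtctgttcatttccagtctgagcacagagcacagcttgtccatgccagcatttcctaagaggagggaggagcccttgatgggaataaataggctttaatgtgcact
S100a8: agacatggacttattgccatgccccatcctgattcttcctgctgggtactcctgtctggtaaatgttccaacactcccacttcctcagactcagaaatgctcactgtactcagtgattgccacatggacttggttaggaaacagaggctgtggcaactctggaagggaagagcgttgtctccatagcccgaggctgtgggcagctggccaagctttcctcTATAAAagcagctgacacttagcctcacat
S100a9: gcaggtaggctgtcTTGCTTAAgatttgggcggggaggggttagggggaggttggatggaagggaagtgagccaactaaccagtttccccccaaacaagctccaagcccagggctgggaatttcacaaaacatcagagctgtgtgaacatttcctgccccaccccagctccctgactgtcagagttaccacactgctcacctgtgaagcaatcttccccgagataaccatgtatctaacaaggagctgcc
The motifs were searched on both strands. The C/EBP-type letters TTGCNNAA occurred in Lcn2 as TTGCTCAA, from 216 to 209 bases before the start, and in S100a9 as TTGCTTAA, from 236 to 229 bases before it; 9.56% of 32851 RefSeq promoters of this length held the motif. A TATA box written as TATAAA occurred in S100a8, from 30 to 25 bases before its start, and in 12.4% of all promoters. The STAT letters TTCNNNGAA (7.02% of all promoters) and the NF-kB letters GGGA, any base, TTTCC (0.356%) occurred in none of the 4 windows, which says only that these letters are not in them.

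Among tumour-like cells of the control library, Lcn2 was higher in the Krt16/Klk8-high cells. There it reached 59.7 CPM (368 UMIs, exact Poisson 95% interval 53.8 to 66.2), against 1.25 CPM (122 UMIs, 1.04 to 1.50) in the Krt16/Klk8-low cells of the same library. The ratio was 47.7-fold, a log2 ratio of 5.58 with a range of 5.17 to 5.99 allowed by the 2 intervals. With the split at 10 Krt16 plus Klk8 UMIs it was 4.19. The 2 classes also differed in other markers. Of the counted fibroblast markers 5 of 7, and of the endothelial markers 3 of 4, were past 2-fold lower in the control high cells, where 4.2% of all genes were. Their part in the ratio was not tested. In the knockdown library the Krt16/Klk8-high cells held 1 Lcn2 UMI (0.756 CPM, 0.0191 to 4.21) and the Krt16/Klk8-low cells 10 (0.116 CPM, 0.0556 to 0.213). Lcn2 was thus lower in the knockdown by a log2 ratio of -6.30 (-11.76 to -3.67) in the high cells and -3.43 (-4.75 to -2.29) in the low cells. With the split at 10 UMIs these were -4.58 and -4.54. Without the top cell of each library the high cells of the knockdown had no UMI, and the value was a bound of -4.47 with its 0 counted as 3 UMIs. The intervals of the 2 libraries did not overlap in either class as split at 5. Of all 1163 Lcn2 UMIs of the control, 31.6% lay in the Krt16/Klk8-high gate and 47.2% in the macrophage gate, where 1 cell held 439, leaving aside cells with 3 or more neutrophil markers.

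Serpina3n followed the same order of classes within the control library. It was at 34.2 CPM (211 UMIs, 29.8 to 39.2) in the Krt16/Klk8-high and 1.17 CPM (114 UMIs, 0.966 to 1.41) in the Krt16/Klk8-low cells, 29.3-fold higher in the former (log2 ratio 4.87, 4.40 to 5.34). In the knockdown library it was at 2.27 CPM (3 UMIs, 0.468 to 6.63) in the high and 0.348 CPM (30 UMIs, 0.235 to 0.497) in the low cells. The log2 ratios of knockdown over control were -3.92 (-6.39 to -2.17) and -1.75 (-2.58 to -0.96). The former was -3.09 with the split at 10 UMIs and -5.43 where Xist had to be at 0 and the C1q genes under 5 per 10000. Both settings left fewer than the 3 knockdown UMIs, so single UMIs set these values. Within the knockdown library the high cells stood above the low cells by a log2 ratio of 2.70 for both genes, but with 1 and 3 UMIs the ranges reached from -3.48 to 6.24 for Lcn2 and from -0.09 to 4.82 for Serpina3n. The Serpina3 genes are related copies, and how reads that match several of them were counted is not given in the sources used here.

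S100a8 and S100a9 did not follow this order. In the control Krt16/Klk8-high cells S100a8 had 4 UMIs (0.649 CPM, 0.177 to 1.66) in 4 cells, and S100a9 had none (3 UMIs would give 0.487 CPM). In the Krt16/Klk8-low cells they were at 0.883 CPM (86 UMIs, 0.706 to 1.09) and 0.770 CPM (75 UMIs, 0.606 to 0.965). The high over low log2 ratio of S100a8 was -0.44 with a range of -2.62 to 1.23, a difference not detectable at this depth; it was 0.0513 without the top cell of each class, 0.0028 with the split at 10 UMIs and 0.46 without cells of 3 or more neutrophil markers. S100a9 was at least 1.58-fold lower in the high cells, counting 3 UMIs for its 0, but 1 low cell held 54 of the 75 UMIs; without it the low cells were at 0.216 CPM, under the 0.487 CPM of 3 UMIs, and no fold remained. The knockdown high cells had no UMI of either gene. The knockdown low cells had 17 S100a8 UMIs (0.197 CPM, 0.115 to 0.316) and 2 S100a9 UMIs (0.0232 CPM, 0.00281 to 0.0838), log2 ratios of -2.16 (-3.25 to -1.16) and -5.05 (-8.42 to -2.85) against control. Without the top cell of each library these were -1.44 and -4.22, and without cells of 3 or more neutrophil markers -1.26 and -2.995.

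**Figure D1:**
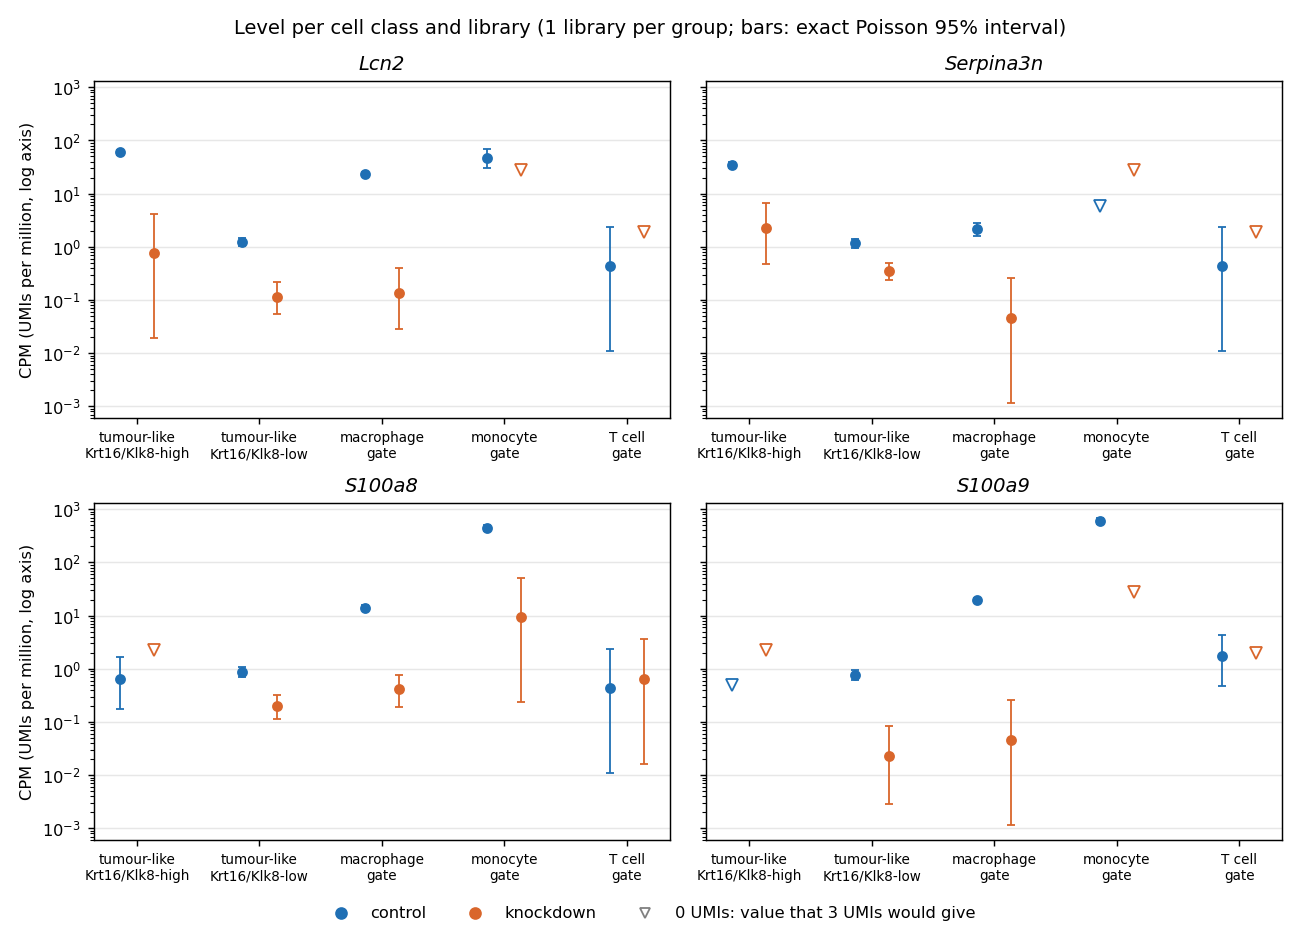
CPM (log axis) of each gene in 5 cell gates of the control (blue) and knockdown (orange) library, with exact Poisson 95% intervals; open triangles mark 0 UMIs and stand at the value that 3 UMIs would give. Lcn2 and Serpina3n have a high control point in the Krt16/Klk8-high cells (59.7 and 34.2 CPM), S100a8 and S100a9 in the monocyte gate (438 and 604.5 CPM). The neutrophil gate is not drawn. In control it held Lcn2 at 68.6, Serpina3n at 2.64, S100a8 at 1053 and S100a9 at 1831 CPM.

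Read against all genes, the members past 2-fold lay on the lower side in the knockdown. Genes were counted with at least 100 UMIs in 1 group and some in both. In Krt16/Klk8-high cells 2 of the 2 members that could be counted, Lcn2 and Serpina3n, were past 2-fold lower, as were 3.11% of 6632 genes (1.03% were higher). In Krt16/Klk8-low cells the same 2 members of 2 were, against 0.171% of 12287 genes (0.553% higher). In the macrophage gate 3 of 3 were (Lcn2, S100a8 and S100a9), against 0.297% of 10789 genes (5.48% higher), and in the monocyte gate 1 of 1 (S100a8), against 6.12% of 784 genes (0.638% higher). For the high over the low cells of the control, Lcn2 and Serpina3n were 2 of 2 past 2-fold higher, against 3.93% of 12128 genes (4.2% lower). The members were chosen on these contrasts, so nothing is read from their counts.

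Along the Krt16 plus Klk8 count of a control cell, a few cells carried most of the Lcn2 in each bin. It was at 0.605 CPM in the 4392 tumour-like cells with no such UMI, 12.7 CPM in the 130 cells with 2 to 4, 91.2 CPM in the 72 cells with 5 to 9, 66.0 CPM in the 58 cells with 10 to 19 and 39.95 CPM in the 101 cells with 20 or more. In the 3 upper bins Lcn2 had a UMI in 11, 9 and 10 cells (15.3%, 15.5% and 9.90%), and the 3 highest cells of each bin held 113 of 143, 97 of 105 and 102 of 120 UMIs. Counting intervals do not cover such spread between cells, so no order of these bins is read from them. The bin with exactly 1 such UMI stood at 6.06 CPM, all of it 32 Lcn2 UMIs in 1 of 224 cells. Serpina3n was at 0.717 CPM with no Krt16 or Klk8 UMI, 0.946 CPM with 1, 15.9 CPM with 2 to 4, and 32.5, 34.6 and 34.96 CPM in the 3 upper bins, where the 3 highest cells held 23 of 51, 31 of 55 and 45 of 105 UMIs. In the knockdown library no bin had more than 9 Lcn2 UMIs, and those 9 were in the 4939 cells without Krt16 or Klk8. The knockdown bin with 20 or more held only 7 cells, with 1 Lcn2 and 2 Serpina3n UMIs.

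**Figure D2:**
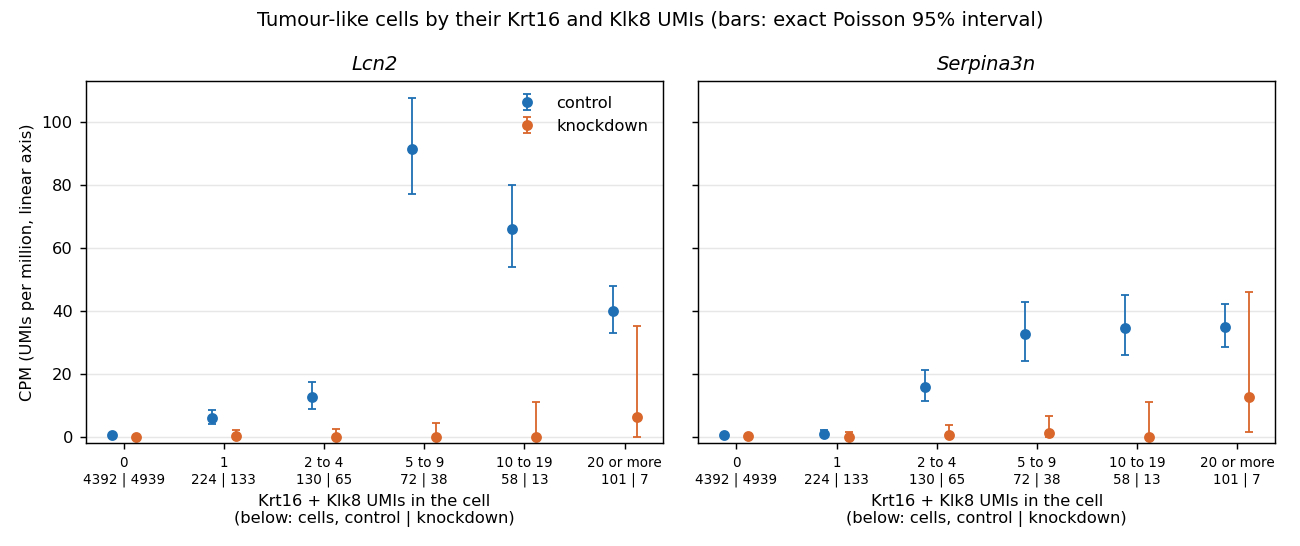
CPM (linear axis) of Lcn2 and Serpina3n in tumour-like cells by their Krt16 plus Klk8 UMIs, control in blue and knockdown in orange, with exact Poisson 95% intervals and the number of cells under each bin. Control Lcn2 stands between 39.95 and 91.2 CPM from 5 UMIs on, in bins where 3 cells hold most of it, and control Serpina3n between 32.5 and 34.96 CPM.

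At the threshold itself, the 22 control cells with exactly 5 Krt16 plus Klk8 UMIs held 98 Lcn2 and 24 Serpina3n UMIs, and the 34 cells with 4 held 9 and 19. Of the 98, 90 were in 3 cells. The 18 cells with 6 held no Lcn2 and 15 Serpina3n UMIs, and the 28 cells with 3 held none and 1. Krt16, a stress keratin of epidermis, and Klk8, a secreted serine protease of epidermis and brain, marked partly different cells. The 110 control cells with only Klk8 at 5 or more had 80.6 CPM of Lcn2 (70.6 to 91.6) and 39.6 CPM of Serpina3n (32.7 to 47.5). The 41 cells with only Krt16 at 5 or more had 67.9 CPM of Lcn2 (52.5 to 86.4) and 15.4 CPM of Serpina3n (8.64 to 25.5). In the 77 cells with both, Lcn2 was at 30.1 CPM (23.3 to 38.2) and Serpina3n at 35.0 CPM (27.7 to 43.7). Cells with a Lcn2 UMI numbered 16, 7 and 6 in these sets, in the order given, and counting intervals do not cover the spread between so few. The knockdown library had 29 cells of each single kind, with 1 Lcn2 UMI between them, and no cell with both. The gate's own genes were also lower per cell there, Krt16 at 275 against 568 CPM and Klk8 at 183 against 455 CPM in the high cells, so the high classes of the 2 libraries are not alike in composition.

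Both genes had a UMI in a minority of the high cells, a share that depends on depth. Lcn2 had a UMI in 30 of 231 control high cells (12.99%, Clopper-Pearson 95% interval 8.94 to 18.02) and Serpina3n in 59 (25.5%, 20.05 to 31.7), at a median depth of 24614 UMIs. In T cells, which should lack both genes, each had a UMI in 1 of 365 control cells (0.274%) at a median depth of 3508 UMIs. With every cell thinned to 5000 UMIs, the high-cell shares were 7.79% (4.68 to 12.04) and 13.9% (9.67 to 18.99), and 0 of 109 T cells had either gene (95% interval 0 to 3.33); 256 shallower T cells were left out. In the control low cells the thinned shares, 0.316% for Lcn2 and 0.590% for Serpina3n, stood below 3.33%, and 109 T cells are too few for a comparison of such shares. The 10 highest cells held 82.0% of the Lcn2 UMIs of the control low class. The 10 highest cells held 88.0% of the Lcn2 and 51.7% of the Serpina3n UMIs of the control high class. The highest Lcn2 cell had 53 UMIs, and without it Lcn2 was at 51.4 CPM; Serpina3n was at 31.4 CPM without its highest cell of 18 UMIs.

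The same cells often held both. In the control high class, 20 cells had a UMI of both genes, which is 66.7% of the Lcn2 cells and 33.9% of the Serpina3n cells; in the control low class 5 cells had both, 15.6% and 9.09%. Over the whole control library 20 cells had at least 10 Lcn2 UMIs and held 85.4% of all Lcn2. Their median depth was 24622.5 UMIs, 14 of them had 5 or more Krt16 plus Klk8 UMIs, 14 had Serpina3n and 17 had Spp1, the secreted phosphoprotein osteopontin. By gate, 10 were Krt16/Klk8-high, 5 Krt16/Klk8-low and 2 macrophage, and 3 fell in no gate. No knockdown cell had 10 Lcn2 UMIs or 5 Serpina3n UMIs; 19 control cells had 5 or more of Serpina3n.

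The genes with the most similar pattern to Lcn2 over the 4977 control tumour-like cells, by Pearson's r of log(1 + UMIs per 10000) among 12104 genes, were Ccn3 (0.43), C4b (0.40), Serpina3n itself (0.39), Spp1 (0.35) and Chl1 (0.28). For Serpina3n they were C4b (0.47), Ccn3 (0.43), Spp1 (0.41), Chl1 (0.40) and Sparcl1 (0.38). These are descriptions over cells of 1 library, which share its depth and its Krt16/Klk8-high cells. In the 5195 knockdown tumour-like cells the r of Lcn2 with Serpina3n was 0.19 and that of Serpina3n with C4b 0.10, the highest of these pairs. The other pairs ran from -0.0073 (Serpina3n with Sparcl1) to 0.085 (Lcn2 with Spp1). Only 9 of the knockdown cells had a Lcn2 UMI and 26 a Serpina3n UMI. Ccn3 encodes a matricellular protein, C4b a complement component, Chl1 a neural adhesion molecule and Sparcl1 a secreted matrix-associated glycoprotein. In the control high cells C4b was at 174 CPM (1074 UMIs), Spp1 at 498 (3068), Sparcl1 at 122 (753), Chl1 at 29.7 (183) and Ccn3 at 20.3 (125). In the knockdown high cells the same genes were at 16.6, 19.7, 1.51, 1.51 and 0.756 CPM, with 1 to 26 UMIs each. In the low cells their levels lay close to each other in both libraries, for example C4b at 7.68 and 6.21 CPM and Spp1 at 15.5 and 20.2 CPM. The highest r of S100a8 was 0.14 and of S100a9 0.18, which in such sparse counts is no finding.

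In the macrophage gate, Lcn2 was at 23.5 CPM (563 UMIs, 21.6 to 25.5) in control and 0.137 CPM (3 UMIs, 0.0282 to 0.400) in knockdown, a log2 ratio of -7.43 (-9.82 to -5.76). Of the 563 UMIs, 439 were in 1 cell of 27391 UMIs that had 38 Serpina3n, 8 Krt16, 5 Klk8 and 45 C1qa UMIs and none of Ptprc or of the macrophage gene Adgre1. A further 90 were in 1 cell of 40110 UMIs. Without the first cell, Lcn2 in the gate was at 5.19 CPM, the log2 ratio without the top cell of each library was -5.83, and Serpina3n fell from 2.13 CPM (51 UMIs, 1.59 to 2.80) to 0.544 CPM (13 UMIs). Serpina3n had 1 UMI in the knockdown gate (0.0456 CPM), a log2 ratio of -5.55 (-11.25 to -2.64). Without the top cell of each library the knockdown had no UMI, and the log2 ratio was a bound of -1.99 with its 0 counted as 3 UMIs. Lcn2 was detected in 22 of 3998 control macrophages (0.550%) and Serpina3n in 13 (0.325%), at a median depth of 5380 UMIs; the T cell share was 0.274% for each. Thinned to 5000 UMIs, with 1800 shallower macrophages left out, the shares were 0.409% and 0.182%, which the 109 thinned T cells are too few to compare with.

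S100a8 and S100a9 in the macrophage gate were at 14.1 CPM (338 UMIs, 12.7 to 15.7) and 19.9 CPM (477 UMIs, 18.2 to 21.8) in control. In knockdown they had 9 UMIs (0.410 CPM, 0.188 to 0.779) and 1 UMI (0.0456 CPM, 0.00115 to 0.254). The log2 ratios were -5.10 (-6.39 to -4.02) and -8.77 (-14.21 to -6.16). The control UMIs lay in few and shallow cells: 10 cells held 84.6% of the S100a8 and 97.9% of the S100a9, and the 604 macrophage-gate cells under 2000 UMIs held 256 of the 338 and 426 of the 477. Such cells can pass the gate with 1 or a few C1q UMIs. Without cells of 3 or more neutrophil markers the log2 ratios were -3.64 for S100a8 and -5.96 for S100a9. Of the control UMIs then left, 30 of 94 S100a8 and 47 of 67 S100a9 were in 1 cell of 677 UMIs with 2 neutrophil markers. In macrophage-gate cells that also had Ptprc, 2000 UMIs and fewer than 3 of 18 neutrophil markers, control and knockdown S100a8 were at 2.43 CPM (43 UMIs in 36 of 2537 cells) and 0.344 CPM (5 UMIs in 2384 cells). S100a9 there had 5 and 1 UMIs, Serpina3n 7 and 0, and Lcn2 102 and 2, with 90 of the 102 in 1 cell. The log2 ratios in these cells were -2.82 for S100a8, -2.04 for S100a9, -5.39 for Lcn2 and -0.94 for Serpina3n, the last a bound with its 0 counted as 3 UMIs. For S100a9 the intervals overlapped (0.0918 to 0.660 and 0.00174 to 0.383 CPM), so its direction is not separated there. Summed over the 8 fibroblast markers, the macrophage gate of the control stood at 314 CPM and that of the knockdown at 845 CPM, and 5.48% of its genes were past 2-fold higher in the knockdown; their part in these ratios was not tested.

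In the monocyte gate the control library reached its highest S100a8 and S100a9 levels of the 4 rule gates, 438 CPM (227 UMIs, 383 to 499) and 604.5 CPM (313 UMIs, 539 to 675). The 40 knockdown monocytes held 1 S100a8 UMI (9.31 CPM, 0.236 to 51.9) and no S100a9. S100a8 was lower by a log2 ratio of -5.56 (-11.05 to -2.89) and S100a9 at least 21.6-fold lower. S100a9 came from 5 of 144 control cells (3.47%, 1.14 to 7.92), 1 of which held 178 of the 313 UMIs, and S100a8 from 19 (13.2%, 8.13 to 19.8). All 5 also had S100a8 and 3 or more neutrophil markers. Without the 16 control monocytes that had 3 or more neutrophil markers, S100a8 was at 31.4 CPM (14 UMIs, 17.2 to 52.7), and S100a9 had no UMI. The S100a8 log2 ratio was then -1.70, but the knockdown held 1 UMI (9.64 CPM, 0.244 to 53.7), and its interval covers that of the control, so the direction is undetermined. Without the top cell of each library the bounds were -2.95 for S100a8 and -3.19 for S100a9. Lcn2 had 24 UMIs in 16 control monocytes (46.4 CPM, 29.7 to 69.0) and none in knockdown, at least 1.66-fold lower; without the neutrophil-marked cells the control was at 29.2 CPM (13 UMIs), the log2 bound was -0.013, so the size of any difference is undetermined. Serpina3n had no UMI in either library. The gates of the 2 libraries also differed in their marker sums, control against knockdown: 624 and 214 CPM for the neutrophil markers, 11.6 and 307 CPM (6 and 33 UMIs) for the T cell markers, and 199 and 708 CPM for the fibroblast markers. Their part in these ratios was not tested.

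Most S100a8 and S100a9 UMIs of the control library lay in cells with neutrophil markers, whichever gate held them. The 122 control cells with at least 3 of the 18 markers made up 0.818% of all UMIs but held 75.9% of the S100a8 UMIs (731 of 963) and 90.4% of the S100a9 UMIs (1266 of 1400). They held 4.13% of the Lcn2 and 0.233% of the Serpina3n UMIs. In the knockdown library 46 cells had 3 or more markers and held 11 S100a8 and 11 S100a9 UMIs. The list is not specific to neutrophils in these libraries: Mmp9, a matrix protease on it, was at 98.7 CPM in control Krt16/Klk8-high cells, and Ly6g, a defining surface marker, had no UMI in any gate of either library.

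A total of 29 control cells had 10 or more S100a8 plus S100a9 UMIs, and they held 91.5% of the library's UMIs of the pair. Their median depth was 1304 UMIs, 19 had fewer than 2000, and 23 had at least 3 neutrophil markers. Retnlg, a secreted resistin-like protein of neutrophils, was detected in 22 of them, the decoy receptor Il1r2 in 18, the G-CSF receptor Csf3r in 16, Cxcr2 in 7, and Ptprc in 26. By gate, 9 lay in the macrophage gate, 6 in the monocyte gate, 1 in the Krt16/Klk8-low gate, 7 in the neutrophil gate alone and 6 in none; with those it shares with other gates, the neutrophil gate held 14. The Krt16/Klk8-low cell, of 22801 UMIs, held 40 of the 86 S100a8 and 54 of the 75 S100a9 UMIs of the control low class, together with 19 Retnlg and 10 Lcn2 UMIs. Without the neutrophil-marked cells the control low class had 0.473 CPM of S100a8 (46 UMIs) and 0.185 CPM of S100a9 (18 UMIs). The knockdown library had 1 cell with 10 or more UMIs of the pair, with 9 and 11 at a depth of 708 UMIs. Retnlg had no UMI in the knockdown Krt16/Klk8-low, macrophage and monocyte gates, against 33, 30 and 79 UMIs in control. Not all of the 18 markers followed Retnlg. Of 5 counted in the macrophage gate, 0 were past 2-fold lower in the knockdown and 1 was higher, Mmp9, which rose from 8.23 to 18.1 CPM. Csf3r went from 30.1 to 32.1 CPM there and Il1r2 from 10.7 to 9.57 CPM. Mmp8, too sparse to be counted, fell from 2.97 to 0.729 CPM. Over all kept cells 3 of 10 counted markers were past 2-fold lower in the knockdown and 1 higher.

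The share of tumour-like cells with S100a8 or S100a9 was not separated from that of T cells, which should lack both genes. In control low cells, thinned to 5000 UMIs, S100a8 was in 0.295% (0.161 to 0.494) and S100a9 in 0.105% (0.0342 to 0.246), against 0 of 109 (95% interval 0 to 3.33) and 2 of 109 thinned T cells (1.83%, 0.223 to 6.47). Unthinned, the shares were 0.864% and 0.421% in low cells of 18431 median UMIs and 0.274% and 1.10% in T cells of 3508. The intervals overlapped for both genes, so the shares cannot be told apart at this depth. The 7 control T cells with a UMI of any of the 4 genes had 5121 to 46872 UMIs in all, above the T cell median.

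**Figure D3:**
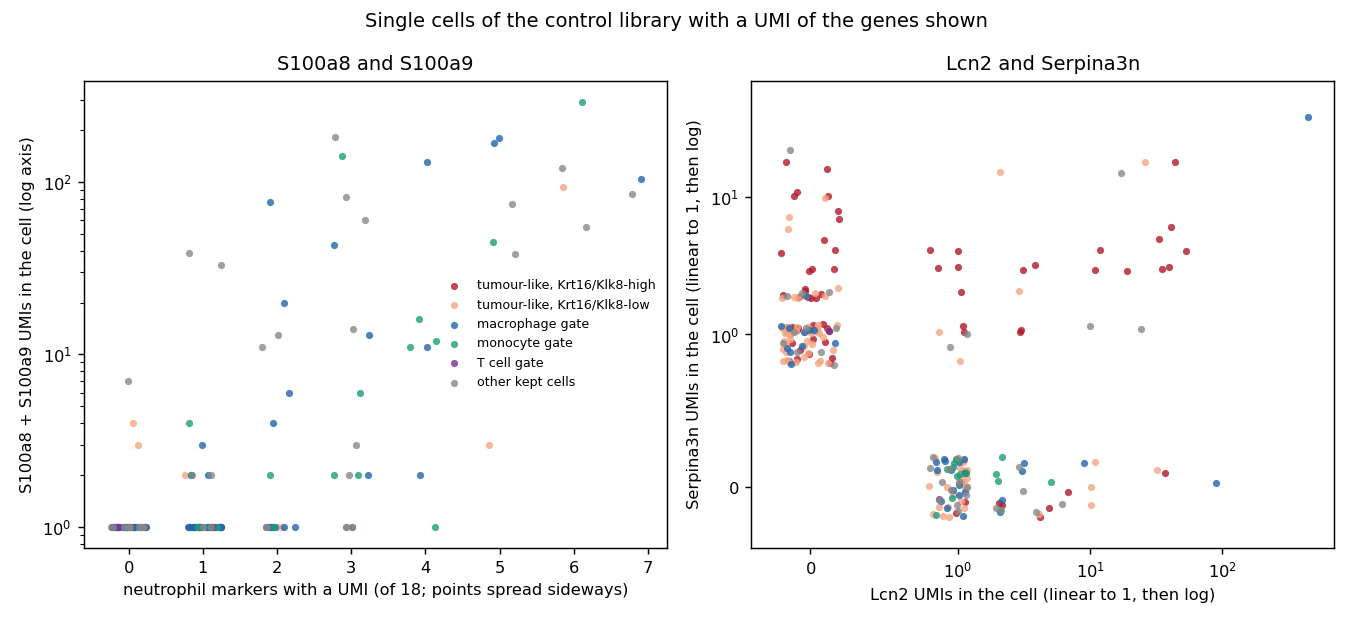
Single control cells coloured by gate: on the left S100a8 plus S100a9 UMIs (log axis) against the number of 18 neutrophil markers with a UMI, on the right Serpina3n against Lcn2 UMIs (linear to 1, then log). Cells with many S100a8 and S100a9 UMIs mostly have 3 or more markers and no tumour-like gate, while cells with both Lcn2 and Serpina3n are mostly Krt16/Klk8-high, and the cell at 439 and 38 UMIs is in the macrophage gate.

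On the acute-phase list used here, the 4 genes with enough UMIs to be counted stood within 2-fold between control high and low cells. The complement gene C4b, given above, is not on this list and was at 174 CPM in the high and 7.68 CPM in the low cells. Of the 30 listed genes only 4 had 100 UMIs in the tumour-like classes of the control, the metallothioneins Mt1 and Mt2, ceruloplasmin Cp and complement C3. Past 2-fold higher or lower between high and low cells were 0 of these 4 (median log2 ratio 0.20, all genes -0.03). Among all genes 3.93% were past 2-fold higher and 4.2% lower in this comparison, for this and the next lists. Mt1, which binds zinc and copper, was at 1007 and 816 CPM in high and low cells. Of the 20 others with a UMI, all under the 100, 8 gave no ratio, 11 stood above 0 in log2 ratio of high over low cells and 1 below. For 5 the range lay above 0 and for 0 below. These 5 were chosen after their values were seen: Lbp (lipopolysaccharide-binding protein) with 23 UMIs against 30 (3.73 and 0.308 CPM), Cfb (complement factor B) with 26 against 90 (4.22 and 0.924 CPM), Orm1 (orosomucoid) with 8 against 5 (1.30 and 0.0513 CPM), Hp (haptoglobin) with 13 against 63 (2.11 and 0.647 CPM), and Il1rn (the interleukin-1 receptor antagonist) with 21 against 64 (3.41 and 0.657 CPM). The serum amyloid gene Saa3 had 6 against 59 (0.974 and 0.606 CPM), with a log2 ratio of 0.68 and a range of -1.13 to 2.20. In the knockdown high cells Lbp had no UMI, a log2 bound of -0.72 against control (-1.30 to -0.06) with its 0 counted as 3 UMIs. Cfb had 1 UMI (0.756 CPM; log2 ratio -2.48, -8.34 to 0.61), Il1rn 1 (0.756 CPM; -2.17, -8.09 to 1.00) and Orm1 2 (1.51 CPM; 0.22, -3.80 to 3.28), too few for a direction in these 3. Hp had none against 13, and no fold could be given, since 3 UMIs would give 2.27 CPM. Of the other Serpina3 genes, 2 of 10 could be counted, 0 past 2-fold higher and 1 lower. Serpina3g was at 7.30 and 13.9 CPM in control high and low cells (log2 ratio -0.93), and Serpina3h at 0.649 and 1.90 CPM (-1.55, range -3.63 to 0.02).

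None of the counted genes of the rest of the S100 family was past 2-fold higher in the control high cells. Of 14 genes 10 could be counted between control high and low cells, 0 were past 2-fold higher and 3 lower (S100a16 at -1.77, S100a7a at -1.54 and S100a5 at -1.51), with a median of -0.55. S100a7a and S100a5 had only 3 and 4 UMIs in the high cells, and their ranges reached 0 (-4.06 to 0.26 and -3.60 to 0.07). The abundant S100a6 was at 5834 CPM in high and 8218 CPM in low cells (log2 ratio -0.49). Between knockdown and control high cells 0 of 6 were past 2-fold either way (median 0.28, all genes -0.05). Of all genes 3.11% were lower and 1.03% higher there. Between low cells 0 of 10 were past 2-fold, where 0.171% of all genes were lower and 0.553% higher. In the macrophage gate 1 of 6, S100a6, was past 2-fold higher in the knockdown (log2 ratio 1.10), where 5.48% of all genes were. The 7 counted fibroblast markers were all past 2-fold higher there too, and Hmga2 went from 33.5 to 91.3 CPM; their part in the S100a6 value was not tested.

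Among receptors for the 4 proteins, 7 of 12 could be counted in the control comparison, and 1 was past 2-fold higher in high cells: Alcam, an adhesion molecule reported to bind S100 proteins, at 20.9 against 5.62 CPM (log2 ratio 1.90). The basigin gene Bsg was at 944 and 886 CPM and Tlr4 at 9.41 and 6.69 CPM. Alcam was also the 1 of 4 past 2-fold lower in the knockdown high cells, at 9.83 CPM (-1.09, -2.25 to -0.06), where 3.11% of all genes were. Of 12 iron-handling genes, 2 of the 10 counted were past 2-fold higher in control high cells: Fth1, the ferritin heavy chain, at 10895 against 3834 CPM (1.51), and Steap3, an endosomal ferrireductase, at 82.5 against 25.4 CPM (1.70). The same 2 of 8 were past 2-fold lower in knockdown high cells, Fth1 at 4771 CPM (-1.19, -1.24 to -1.14) and Steap3 at 24.2 CPM (-1.77, -2.44 to -1.14). In low cells the 2 libraries stood close, with Fth1 at 3834 and 3743 CPM. There 0 of 10 iron-handling genes were past 2-fold, where 0.171% of all genes were lower and 0.553% higher.

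The cytokines known to induce these genes were sparse in tumour-like cells. Of 12, 5 could be counted in the control comparison and 0 were past 2-fold; Clcf1, an interleukin-6 family ligand, was at 9.25 and 6.06 CPM (log2 ratio 0.61) and Tnf at 2.43 and 2.18 CPM. Of their 26 receptors and signalling genes, all were counted, 4 were past 2-fold higher in control high cells and 0 lower (median 0.14). These were the receptor subunits Il11ra1 (49.7 against 21.8 CPM, 1.19) and Lifr (1.15), the STAT3 feedback inhibitor Socs3 (67.5 against 31.9 CPM, 1.08) and the transcription factor Cebpd (56.8 against 28.0 CPM, 1.02). Among the most abundant, Stat3 and Cebpb stood at 0.62 each, the kinase Jak1 at 0.12 and the NF-kB inhibitor Nfkbia at -0.17. In the knockdown high cells 1 of 19 was past 2-fold lower, Cebpd at 18.1 CPM (-1.65, -2.44 to -0.92), a share near the 3.11% of all genes and no result about the list, and Socs3 stood at -0.62 (-1.16 to -0.11), with a median of -0.34. Between the low cells 0 of 26 were past 2-fold, where 0.171% of all genes were lower and 0.553% higher. The cytokine gene Tnf stood at 0.95 between the low cells, higher in the knockdown. In the macrophage gate Hp, the hemoglobin-binding haptoglobin, was the 1 of 7 acute-phase genes past 2-fold lower in the knockdown (4.76 to 0.957 CPM, -2.31). Of all genes 0.297% were past 2-fold lower there. Osmr (2.12) and Il17rc (1.42) were 2 of 25 signalling genes past 2-fold higher, a share near the 5.48% of all genes and no result about this list.

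**Figure D4:**
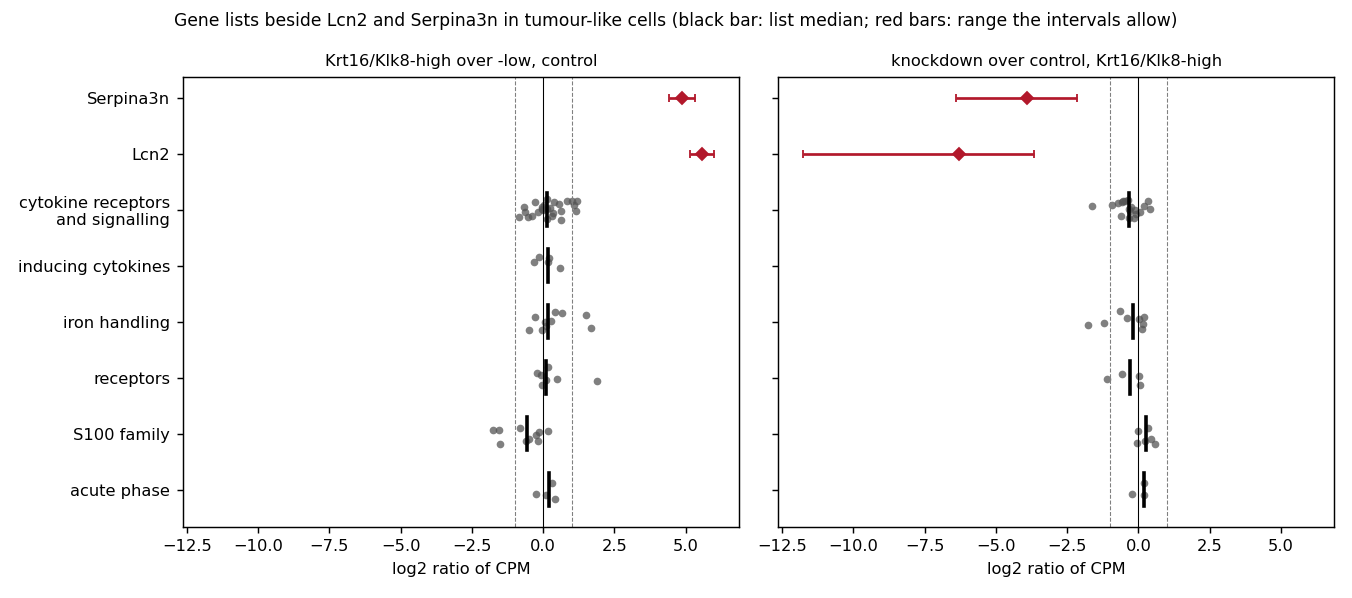
Log2 ratios of CPM for the counted genes of 6 lists (grey points, black bar at the median) beside Lcn2 and Serpina3n (red diamonds with the range their intervals allow), for control high over low cells on the left and knockdown over control high cells on the right; dashed lines mark 2-fold. The medians of these 6 lists lie between -0.55 and 0.20 on the left and between -0.34 and 0.28 on the right, and Lcn2 lies at 5.58 and -6.30. The list of other Serpina3 genes is not drawn. Its median was -1.24 over 2 counted genes for the left comparison, and 0 were counted for the right.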

How the data were processed

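The 2 libraries, 1 per group, were made on the 10x Genomics platform. The authors deposited unnormalised UMI counts for each gene in each cell; the file headers name Cell Ranger 6.1.0 and the submitters' processing notes Cell Ranger 3.1.0, and the genome build and annotation are not given in the sources used here. The deposited matrices held 11977 control cells (165824226 UMIs) and 12853 knockdown cells (138402860 UMIs). Cells with at least 200 genes and at most 20% mitochondrial UMIs were kept, and the cells with the highest Scrublet scores (scanpy 1.11.5) were removed as doublets at 0.8% per 1000 cells, 1148 in control and 1322 in knockdown.

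CPM was computed from summed counts with exact Poisson 95% intervals, and shares of cells with Clopper-Pearson 95% intervals, which cover counting error only. A ratio's range divides the bounds of the 2 intervals. A 0 was counted as 3 UMIs in its class for a bound, and no fold was given where both values were at or under 3 UMIs or where those 3 UMIs would lie above the other value. T cells had at least 3 UMIs of Cd3d, Cd3e and Cd3g, a Ptprc UMI, and Lyz2 and C1q each under 5 per 10000. Cells were thinned to 5000 UMIs for shares. With 1 library per group no test was made; genes with 100 UMIs in 1 group and some in both were counted past 2-fold. The ratio script was tested on simulated data. Python 3.11.15, numpy 2.4.6 and scipy 1.17.1 were used.

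The 4 genes, the gene lists and the gates were chosen with earlier results of these data known. From each list at most the 4 genes with the most UMIs and the 4 with the largest log2 ratio were eligible to be named, and for each member the 5 genes of highest correlation among those detected in 2% of control tumour-like cells. Alternatives changed the doublet and cell filters, the weighting of cells, the scaling and each gate.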

Additional observations from a re-analysis of the deposited data

How the results depend on the processing

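The ratios were recomputed under 147 alternatives of 17 results (other doublet, cell and gate settings, equal weight per cell, scaling by the median gene ratio); 128 moved by less than the interval of the value, 16 moved by more and 3 changed sign, while the knockdown was lower in all 13 knockdown results as reported. Leaving out the top cell or, outside monocytes, the neutrophil-marked cells, and the stricter macrophage gate, were chosen after seeing the data. In macrophages, with Ptprc, 2000 UMIs and under 3 neutrophil markers required, the log2 ratios were -5.39 for Lcn2, -2.82 for S100a8, -2.04 for S100a9 (5 and 1 UMIs, overlapping intervals) and a bound of -0.94 for Serpina3n. Macrophage S100a8 was at -8.01 with equal weight per cell and -3.68 with C1q at 20 per 10000; without cells of 3 or more neutrophil markers S100a8 was at -3.64 and S100a9 at -5.96. Macrophage Serpina3n had a bound of -1.99 without the top cell of each library. In monocytes, without cells of 3 or more neutrophil markers, the Lcn2 bound was -0.013 and S100a8 was at -1.70 (1 knockdown UMI, overlapping intervals); S100a9 had a bound of -3.32 with Lyz2 at 50 per 10000 and of -3.19 without the top cell. For control high over low cells with the split at 10 Krt16 plus Klk8 UMIs, Lcn2 was at 4.19, Serpina3n at 4.38, S100a9 had a bound of -0.21 and S100a8 was at 0.0028; S100a8 was at 0.0513 without the top cell and 0.46 without neutrophil-marked cells, and all 3 S100a8 values reversed its sign. A bound counts a 0 as 3 UMIs. The cause of these shifts was not tested, apart from the cells each setting leaves out. A total of 9 settings gave no value, 3 of them as reported: S100a8 in Krt16/Klk8-high cells (4 control UMIs and 0, where 3 knockdown UMIs would lie above the control level), and S100a9 there and Serpina3n in monocytes, with no UMI in either library. The others were S100a9 in 5 settings and Lcn2 in 1, where a 0 left no fold. No paired analysis was possible because each group is 1 library, and for the same reason no library could be left out. Depth limits the knockdown high cells and monocytes, of 58 and 40 cells, where single UMIs set the values.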

Other observations

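Cells outside the tumour-like, macrophage, monocyte and T cell gates also carried the 4 genes in the control library. Its 1189 such cells held 85 Lcn2 UMIs (9.46 CPM), 54 Serpina3n UMIs (6.01 CPM), 307 S100a8 UMIs (34.2 CPM) and 531 S100a9 UMIs (59.1 CPM), at a median depth of 3018 UMIs. Of these, 15 cells lay in the neutrophil gate and held 5 Lcn2, 146 S100a8 and 324 S100a9 UMIs. The 1351 knockdown cells outside the same gates held 0 Lcn2, 1 Serpina3n, 11 S100a8 and 11 S100a9 UMIs, at a median of 3195. Of those, 9 S100a8 and all 11 S100a9 UMIs were in 1 of 5 cells of the neutrophil gate. The serine protease Klk10, another kallikrein of skin, was at 30.2 CPM (186 UMIs) in control Krt16/Klk8-high cells, 0.678 CPM (66 UMIs) in control low cells and 5.29 CPM (7 UMIs) in knockdown high cells. The keratin Krt14 ran the other way between libraries, with 123 CPM in the high cells of the knockdown library and 10.7 CPM in those of the control.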
